A study of Homo sapiens with 6 samples.

Results

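ACHN cells that received siMEX3A_2, a small interfering RNA (siRNA) against MEX3A, were compared with ACHN cells that received a negative control siRNA, the group NC. Members were the 4 libraries of these groups, of 6 libraries in all, and the 55928 of 60409 table rows whose gene name occurs once. Of these rows, 18197 passed a filter on low counts and were tested. ACHN is a long-established human cell line derived from a renal adenocarcinoma. RNA of both groups was extracted 48 h after transfection, with 2 libraries a group, and the remaining 2 libraries came from cells given a second siRNA, siMEX3A_1. Neither the siRNA sequences nor the number of separate cultures is given in the sources used here. The p-values therefore reflect nothing beyond the variation among these libraries, part or all of which may be technical.

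MEX3A encodes an RNA-binding protein with KH domains and a RING finger, a domain that many ubiquitin ligases carry. An siRNA is loaded onto an Argonaute protein and guides it to messenger RNAs that match its sequence, so the amount of a transcript can drop while its gene stays intact. Renal tubular cells, from which such carcinomas arise, are polarised epithelial cells with heavy traffic of secreted and membrane proteins.

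The targeted gene had a low count. MEX3A was at 93.3 and 106 normalized counts in NC and 73 and 76.1 with siMEX3A_2, which are counts scaled to a common library size. Both siMEX3A_2 libraries lay below both NC libraries, but the log2 fold change of -0.42 (SE 0.17, adjusted p = 0.0616) did not pass the threshold of 0.05. Library totals lay between 18825750 and 18996745 expected counts in the 4 libraries. Of 10 markers of the renal epithelial line all 10 were tested, and 3 rose and 6 fell, 3 of them at least 2-fold (median -0.49). Their summed level was 88320 and 89426 expected counts, not normalized, in NC and 91418 and 90050 with siMEX3A_2. The sums of the other markers below are expected counts too. Of 10 endothelial markers 1 was tested, of 10 leukocyte markers 2, and ERG, CD3E and NKG7 were at 0 in all 4 libraries. The 9 endothelial markers found in the table summed to 75 and 74 in the NC libraries and 63 and 65 with siMEX3A_2, and the 10 leukocyte markers to 89 and 81 against 57 and 69. Of 10 neuron markers 8 were tested, and 2 rose and 4 fell, while DESeq2 called 1 higher and 2 lower. STMN2 was at 0 in all 4 libraries, and all 10 neuron markers summed to 3166 and 3190 in NC and 2943 and 2941 with siMEX3A_2. Fibroblast markers summed to 14017 and 14535 expected counts in NC and 6615 and 6366 with siMEX3A_2. Most of this came from THY1, a surface glycoprotein at 12482 and 12668 normalized counts in NC and 5198 and 5134 with siMEX3A_2. The part of these markers in the results below was not tested.

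A gene was called when its Benjamini-Hochberg adjusted p in the edgeR quasi-likelihood test was under 0.05. By this rule 9458 genes, 52% of those tested, differed between siMEX3A_2 and NC. The 4692 genes that rose were 25.8% of those tested, and the 4766 that fell were 26.2%. A change of at least 2-fold was met by 1084 risen genes (5.96%) and 1384 fallen genes (7.61%). Both siMEX3A_2 libraries lay above both NC libraries in 38.3% of genes and below them in 37.8%. Values given below as rises, falls or changes are log2 fold changes, so that a value of 1 means a 2-fold rise. Over all tested genes their median was -0.001, with percentile 25 at -0.43 and percentile 75 at 0.40. Any family of genes below is read against these shares. In RNA from whole cultures, fewer cells of a kind and less RNA per cell cannot be told apart.

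**Figure D1:**
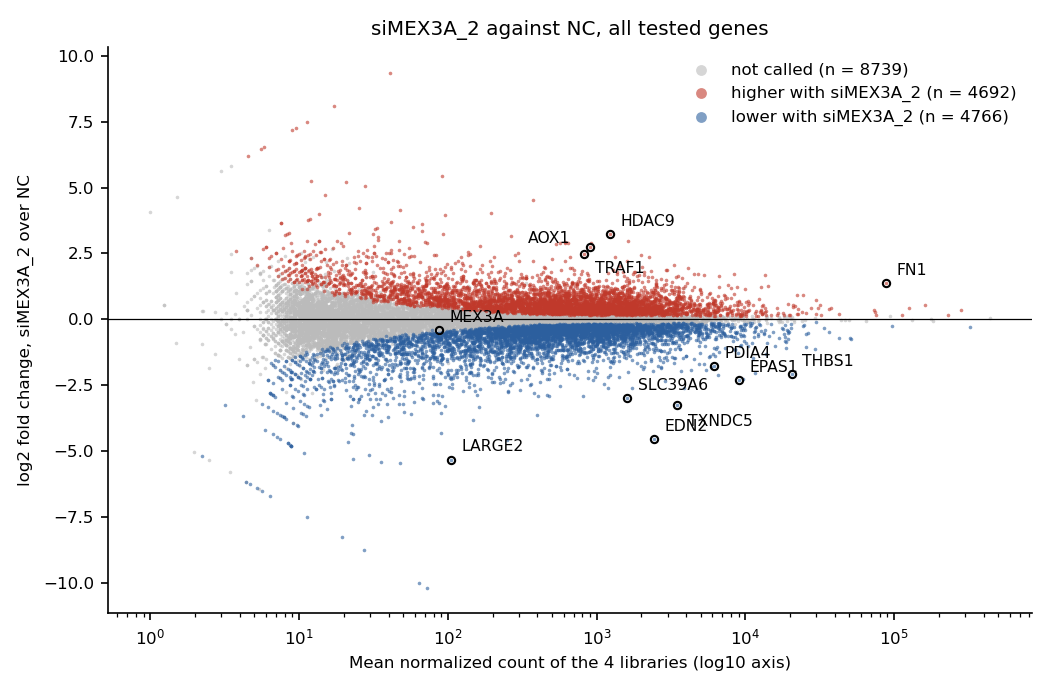
Each point is 1 of the 18197 tested genes, with the mean normalized count of the 4 libraries on a log10 axis against the log2 fold change of siMEX3A_2 over NC. Called genes are coloured by direction. TXNDC5, EDN2 and THBS1 lie far below the main cloud at high counts, while HDAC9, AOX1 and TRAF1 lie far above it.

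The largest rises included a chromatin enzyme, membrane proteins and a signalling adaptor. HDAC9, a class II histone deacetylase, was at 249 and 222 normalized counts in NC and 2215 and 2199.7 with siMEX3A_2. The groups did not overlap, and the log2 fold change was 3.23 (SE 0.10, adjusted p = 2.4e-08). EMP1, a small epithelial membrane protein, was at 155 and 147 in NC and 1099 and 1169 with siMEX3A_2, a change of 2.91 (SE 0.081, adjusted p = 1.46e-08). The microtubule-associated protein gene MAP2 was at 235 and 196 in NC and 1605 and 1629.7 with siMEX3A_2, with a log2 fold change of 2.91 (SE 0.093, adjusted p = 2.55e-08). Both siMEX3A_2 libraries were high for each of these genes and close to each other. SLCO2B1, an organic anion carrier, rose by 2.77, and AOX1, an aldehyde oxidase, by 2.76. LIPH, a phospholipase at the cell surface, rose by 2.49, and PDP1, the phosphatase that activates pyruvate dehydrogenase, by 2.37. TRAF1, an adaptor of tumour necrosis factor receptors, was at 242 and 259.7 normalized counts in NC and 1415 and 1384 with siMEX3A_2. It rose 5.57-fold, with a log2 fold change of 2.48 (SE 0.075, adjusted p = 2.2e-08). PTX3, a secreted pattern recognition protein, rose by 2.23. LUCAT1, a long non-coding RNA, rose by 2.91, and SP140, a nuclear body protein, by 2.85.

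The largest falls included secreted, membrane and sugar-transferring proteins. LARGE2, a glycosyltransferase that extends the sugar chain of dystroglycan, was at 211 and 199 normalized counts in NC and 6 and 4.01 with siMEX3A_2. It was near the detection limit with siMEX3A_2, and the log2 fold change was -5.32 (SE 0.26, adjusted p = 2.56e-07). EDN2, the peptide hormone endothelin 2, was at 4712 and 4548 in NC and 204 and 191 with siMEX3A_2, which gave a log2 fold change of -4.55 (SE 0.073, adjusted p = 1.25e-09). The groups were 23.4-fold apart for this gene. ASIC1, a proton-gated sodium channel, fell by 3.35, and MINPP1, an inositol polyphosphate phosphatase of the endoplasmic reticulum (ER), fell by 2.93. SLC39A6, a zinc importer, was at 2955 and 2750.2 normalized counts in NC and 359 and 357 with siMEX3A_2. Its 4 values formed separate pairs, with a log2 fold change of -2.99 (SE 0.070, adjusted p = 9.21e-09). VGF, a secreted neuropeptide precursor, fell by 2.89, and the protease inhibitor gene SPINT1 fell by 2.87. MCAM, an adhesion molecule of the immunoglobulin family, fell by 2.60, and SLC34A2, a sodium phosphate carrier, fell by 2.60. GLO1, which detoxifies methylglyoxal, was at 2983 and 2942 in NC and 506 and 474 with siMEX3A_2, a log2 fold change of -2.60 (SE 0.070, adjusted p = 1.18e-08). Among the most abundant transcripts THBS1, the matrix protein thrombospondin 1, was at 34923 and 31339 normalized counts in NC and 7872 and 7737 with siMEX3A_2. It fell by 2.09 (SE 0.067, adjusted p = 2.69e-08), and both siMEX3A_2 libraries were low.

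**Figure D2:**
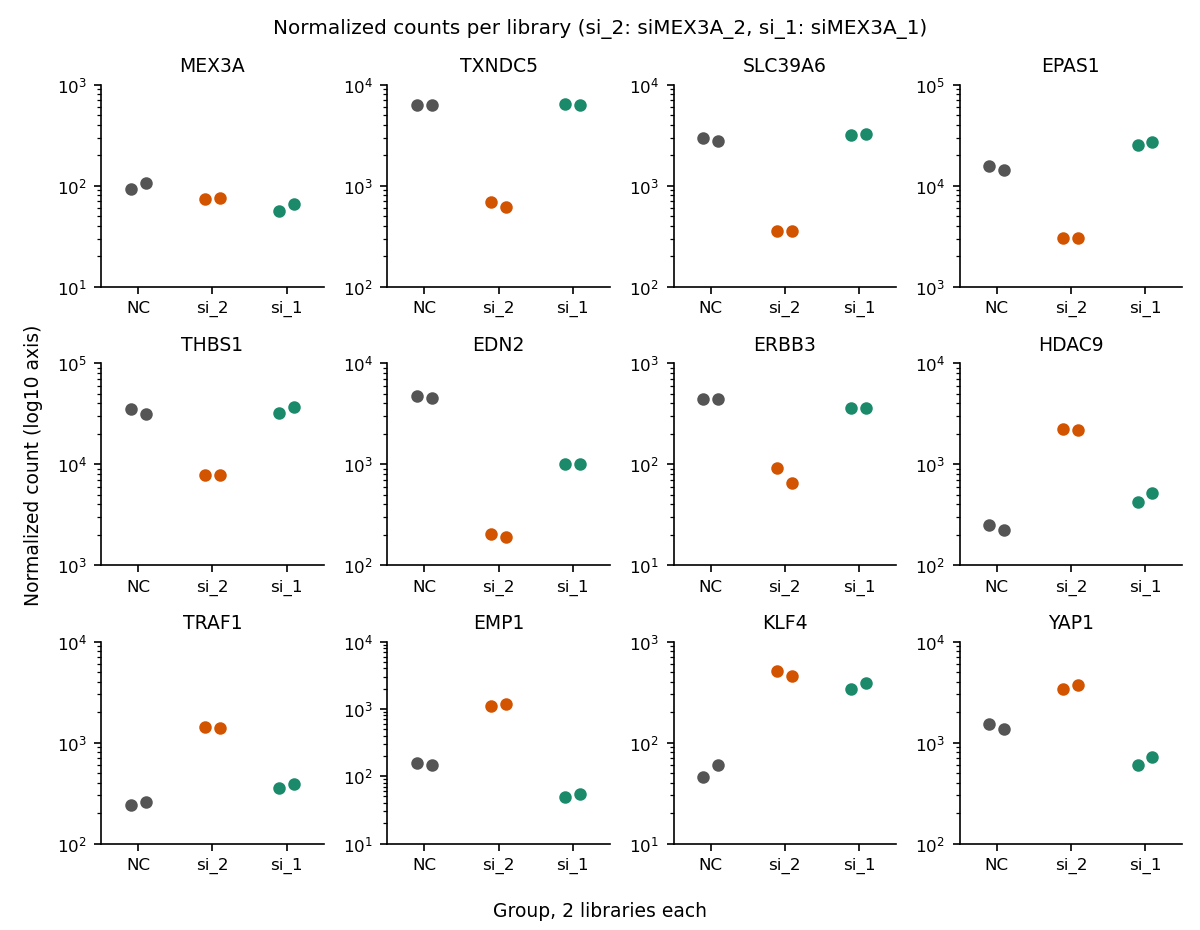
Normalized counts per library on a log10 axis for 12 genes, with 1 point per library and columns for NC, siMEX3A_2 and siMEX3A_1. For TXNDC5, SLC39A6 and EPAS1 the siMEX3A_2 points stand alone below the others, and for HDAC9 and TRAF1 they stand alone above.

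The ER folds proteins that are to be secreted or placed in membranes. Protein disulfide isomerases form and shuffle disulfide bonds, the chaperones HSPA5 and HSP90B1 hold unfolded chains, and the lectins calnexin and calreticulin retain glycoproteins until they fold. When unfolded chains accumulate, 3 sensors start the unfolded protein response, whose factors act in part through a promoter motif called the ER stress element. The letters searched here, on both strands, were CCAAT and CCACG with 9 bases of any kind between them. In RefSeq promoters (GRCh38.p14, 250 bases before to 50 after each start) the motif occurred in 0.077% of 35116 promoters and in 0.141% of the 11344 tested genes with a promoter there. It occurred in 5 of the 21 ER chaperone and lectin genes with a promoter in that table, and 4 of these 5 genes fell, with a median of -0.454 over the 5. Of the 16 without the motif 11 fell and 3 rose, with a median of -0.622, so falls were common in both. The 250 bases before the start of these 4 genes are shown because the genes fell together and carry the motif, in capitals. They lie at chr12:103930160-103930409 (plus strand), chr5:179698679-179698928 (plus), chr9:125241344-125241593 (minus) and chr19:12938359-12938608 (plus), in this order.
HSP90B1: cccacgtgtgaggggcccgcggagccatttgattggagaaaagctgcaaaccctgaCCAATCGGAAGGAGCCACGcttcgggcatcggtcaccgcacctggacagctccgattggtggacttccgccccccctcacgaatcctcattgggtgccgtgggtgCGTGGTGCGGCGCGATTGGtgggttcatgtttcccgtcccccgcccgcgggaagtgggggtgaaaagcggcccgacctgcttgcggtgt
CANX: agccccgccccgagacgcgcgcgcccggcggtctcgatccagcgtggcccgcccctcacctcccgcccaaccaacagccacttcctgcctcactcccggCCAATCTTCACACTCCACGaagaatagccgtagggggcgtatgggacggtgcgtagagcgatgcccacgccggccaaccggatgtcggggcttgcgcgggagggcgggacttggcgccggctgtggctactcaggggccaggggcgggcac
HSPA5: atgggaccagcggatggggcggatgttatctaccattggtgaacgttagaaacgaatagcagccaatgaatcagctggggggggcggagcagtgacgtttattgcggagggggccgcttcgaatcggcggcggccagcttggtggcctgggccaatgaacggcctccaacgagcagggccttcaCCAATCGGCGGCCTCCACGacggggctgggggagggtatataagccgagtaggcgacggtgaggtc
CALR: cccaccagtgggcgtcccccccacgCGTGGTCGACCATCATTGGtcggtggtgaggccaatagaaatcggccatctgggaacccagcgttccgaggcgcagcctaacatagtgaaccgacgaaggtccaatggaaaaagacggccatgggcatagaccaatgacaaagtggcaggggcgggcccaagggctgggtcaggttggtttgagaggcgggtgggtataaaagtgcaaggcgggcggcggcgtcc
The promoter of HSP90B1 held 2 copies and the other 3 held 1 each. Of all 16 tested genes with the motif 6 fell, 5 rose and 5 did not pass, so the motif was present in genes of either direction. FICD, which modifies HSPA5, and SERP1, which stabilises new membrane proteins, carried it and rose, by 1.09 and 0.36. Both were picked after their values were seen.

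Of 15 tested disulfide isomerases 9 fell and 3 rose, and the median of all of them was -0.27 on the log2 scale. TXNDC5, an isomerase with 3 thioredoxin domains, was at 6306 and 6290.2 normalized counts in NC and 692 and 614 with siMEX3A_2. Both siMEX3A_2 libraries were low, 9.64-fold under NC on average, with a log2 fold change of -3.27 (SE 0.067, adjusted p = 5.54e-09). BLOC1S5-TXNDC5, a readthrough gene that shares its exons, fell by 1.46, and the sum of both was 6555 and 6526 in NC against 761 and 721. PDIA4 was at 9565 and 9449 in NC and 2761 and 2779 with siMEX3A_2, with a log2 fold change of -1.78 (SE 0.046, adjusted p = 1.12e-08). Falls were smaller for PDIA3 (-0.67) and PDIA6 (-0.64). The membrane isomerase gene TMX4 fell by 1.27. Of 5 tested oxidation genes 3 fell and 1 rose. The latter was PRDX4, a peroxiredoxin that oxidises isomerases, at 0.64.

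Of 22 tested ER chaperones, lectins and calcium-binding proteins, 16 fell and 3 rose (median -0.50). HSP90B1 was at 20599 and 21322 normalized counts in NC and 10214 and 10836 with siMEX3A_2, a change of -0.99 (SE 0.045, adjusted p = 1.53e-07). CANX, the gene of calnexin, was at 12364 and 12227 in NC and 5973 and 6122 with siMEX3A_2, with a log2 fold change of -1.02 (SE 0.051, adjusted p = 2.8e-07). For both genes the siMEX3A_2 libraries lay close together and far under NC. HSPA5 fell by 0.45 and CALR fell by 0.42. All 4 tested lectin genes fell, among them UGGT1 (-1.20), the sensor of glycoprotein folding. All 5 tested genes of calcium-binding ER proteins fell as well, led by CALU at -1.25 (SE 0.048, adjusted p = 6.66e-08). HYOU1 (-0.89) and MANF (-0.71) fell, whereas DNAJB9, a co-chaperone, rose by 0.45.

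Regulators of the unfolded protein response moved in the opposite direction. Of 15 tested, 10 rose and 2 fell, with a median of 0.30. The number that fell was 1 in DESeq2 and without NC replicate 1 or either siMEX3A_2 library. PPP1R15A, which recruits the phosphatase of the initiation factor eIF2 alpha, was at 559 and 579.9 normalized counts in NC and 2594 and 2653 with siMEX3A_2. The groups were far apart, with a log2 fold change of 2.20 (SE 0.066, adjusted p = 2.07e-08). DDIT3, the stress factor CHOP, was at 405 and 428 in NC and 1004 and 1114 with siMEX3A_2, a rise of 1.35 (SE 0.076, adjusted p = 5.82e-07). CEBPB rose by 1.31, TRIB3 by 1.22 and ATF6, a membrane-bound sensor, by 0.56. ATF4 rose by 0.24, and without siMEX3A_2 replicate 2 its adjusted p was 0.0503. XBP1, the factor spliced by the sensor ERN1, was at 849.6 and 908 in NC and 751 and 803 with siMEX3A_2 and did not pass (adjusted p = 0.0597). EIF2AK3, the kinase sensor PERK, fell by 0.29, a call that did not hold in DESeq2 (adjusted p = 0.0760) or without NC replicate 1 (0.155), siMEX3A_2 replicate 1 (0.120) or siMEX3A_2 replicate 2 (0.0718).

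Steps around folding were less uniform. In the translocon and N-glycosylation list 14 of 26 genes fell and 5 rose (3 without NC replicate 2 or without siMEX3A_2 replicate 1). DDOST, a subunit of oligosaccharyltransferase, was at 4254 and 4279 normalized counts in NC and 1996 and 1936 with siMEX3A_2 and fell by 1.12 (SE 0.053, adjusted p = 2.26e-07). SRPRA, the receptor of the signal recognition particle, fell by 0.88. GANAB, the catalytic subunit of glucosidase II, went against its list: it was at 2221 and 2341 in NC and 5481 and 5547 with siMEX3A_2, a rise of 1.27 (SE 0.054, adjusted p = 1.11e-07). Of 18 tested genes of ER-associated degradation 3 rose and 4 fell, so that 38.9% were called against 52% of all genes. The number that fell was 1 without NC replicate 1 and 2 without any other 1 of the 4 libraries. Among cargo and retrieval receptors KDELR3 (-1.22) and LMAN1 (-0.90) fell. Golgi matrix and tether genes rose in 8 of 9 cases, with GOLGA2 at 0.90 and GOLGA4 at 0.60, and in 5 without either NC replicate 1 or siMEX3A_2 replicate 2.

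**Figure D3:**
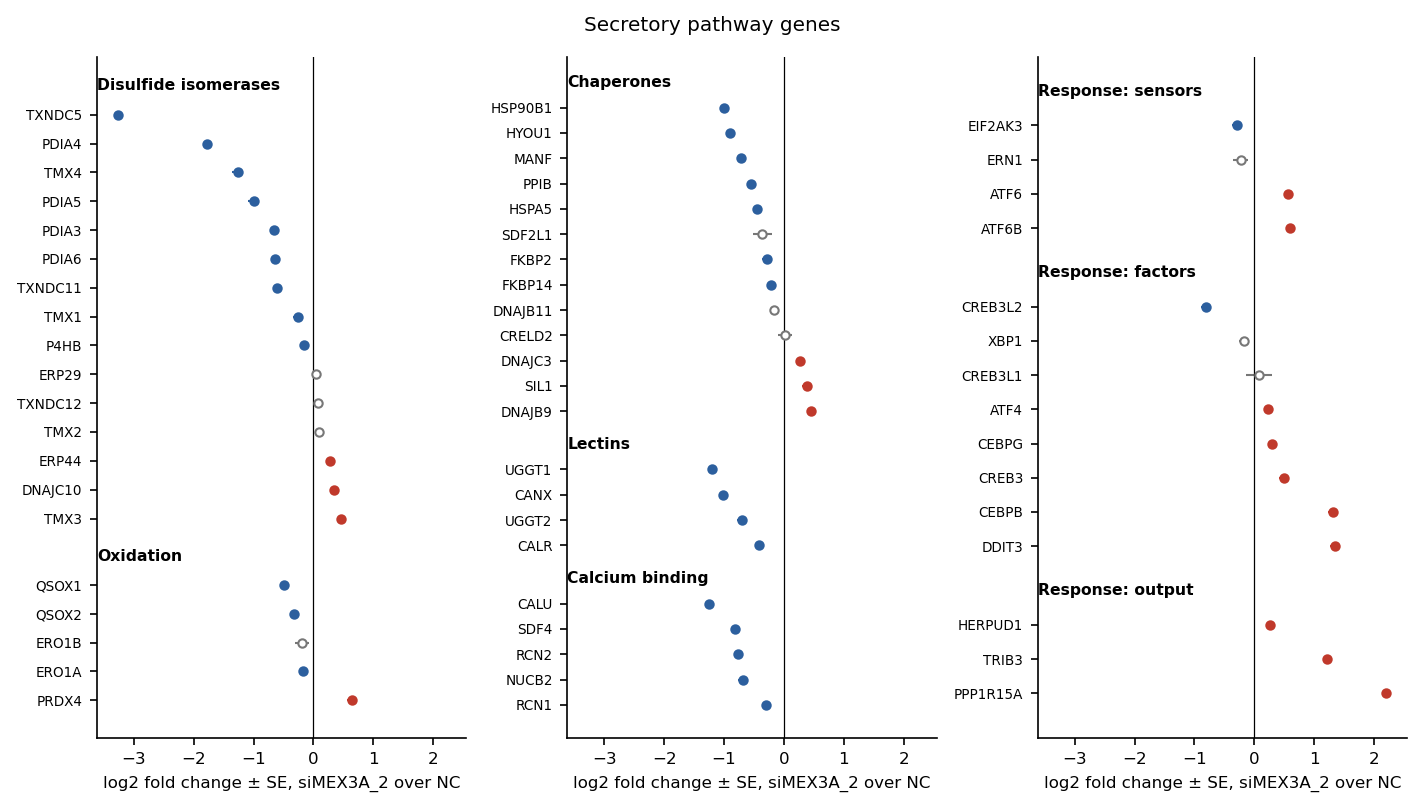
Log2 fold change of siMEX3A_2 over NC for tested genes of the secretory pathway, grouped by role, with bars of 1 standard error. Filled points were called and open points were not. TXNDC5 and PDIA4 lie lowest, and PPP1R15A lies highest.

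Enzymes of sugar transfer fell in some members of each family and not in others. In the dystroglycan list 7 of 14 genes fell and 2 rose. Besides LARGE2, B4GAT1, which primes the same sugar chain, was at 539.9 and 521 normalized counts in NC and 86 and 77.1 with siMEX3A_2, with a log2 fold change of -2.70 (SE 0.11, adjusted p = 8.73e-08). DAG1, which encodes dystroglycan itself, fell by 1.14, and POMT1, which adds the first mannose, fell by 0.83. POMGNT1 rose by 0.59. The GALNT enzymes start mucin-type O-glycans. Of 19 tested genes of that pathway 7 fell, 6 of them at least 2-fold, and 5 rose, 1 of them at least 2-fold (median -0.054). GALNT1 was at 1446 and 1449 in NC and 304 and 313 with siMEX3A_2, a log2 fold change of -2.23 (SE 0.071, adjusted p = 2.53e-08). GALNT6 (-2.18), GALNT12 (-2.06) and GALNT14 (-1.64) fell by similar amounts, whereas GALNT11 rose by 0.65. LFNG, which extends O-linked fucose on Notch receptors, was at 1546 and 1501 in NC and 417 and 363 with siMEX3A_2 and fell by 1.97 (SE 0.081, adjusted p = 1e-07).

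Receptor tyrosine kinases bind growth factors at the cell surface and signal through kinase cascades and phosphoinositide 3-kinase. Of 19 tested receptor genes 15 fell and 0 rose, with a median of -0.70. ERBB3, which pairs with ERBB2, was at 444 and 445 normalized counts in NC and 92 and 65.1 with siMEX3A_2. It fell by 2.50 (SE 0.13, adjusted p = 4e-07). FGFR4 was at 913 and 903 in NC and 247 and 236 with siMEX3A_2, with a log2 fold change of -1.91 (SE 0.073, adjusted p = 6.66e-08). AXL, a receptor of the TAM family, was at 5756 and 5764 in NC and 2274 and 2137 with siMEX3A_2, a change of -1.38 (SE 0.052, adjusted p = 5.61e-08). None of these 3 genes overlapped between the groups. AC034102.2, a gene on the strand of ERBB3 that overlaps it, was not called, and the sum of both gave a log2 ratio of -1.28. EGFR was at 28018 and 22658 in NC and 11941 and 11827 with siMEX3A_2, where the NC libraries differed from each other, and fell by 1.09 (SE 0.11, adjusted p = 2.8e-05). FGFR2 fell by 0.78 and ERBB2 fell by 0.74. MET was at 13275 and 11772 in NC and 11787 and 12100.3 with siMEX3A_2 and did not pass (adjusted p = 0.511).

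Growth factor ligand genes rose in 10 of 15 cases, and 1 fell. This list includes VEGF genes, while the receptor list holds no VEGF receptor. EREG, epiregulin, was at 605 and 537 normalized counts in NC and 2276 and 2311 with siMEX3A_2, a rise of 2.01 (SE 0.12, adjusted p = 6.41e-07). AREG, amphiregulin, was at 120.1 and 105 in NC and 403 and 419 with siMEX3A_2, with a log2 fold change of 1.87 (SE 0.10, adjusted p = 3.57e-07). Both bind EGFR. VEGFA rose by 0.78, HBEGF by 0.75, NRG1, the ligand of ERBB3, by 0.67, and TGFA by 0.53. Without NC replicate 1 or either siMEX3A_2 library, and in DESeq2, no ligand gene fell. Feedback genes of the kinase cascade rose in 10 of 19 cases and fell in 4, and their phosphatases rose in 5 of 9 and fell in 3. DUSP5, a phosphatase of ERK, rose by 1.93, while DUSP6 fell by 0.91 and DUSP7 fell by 1.14.

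**Figure D4:**
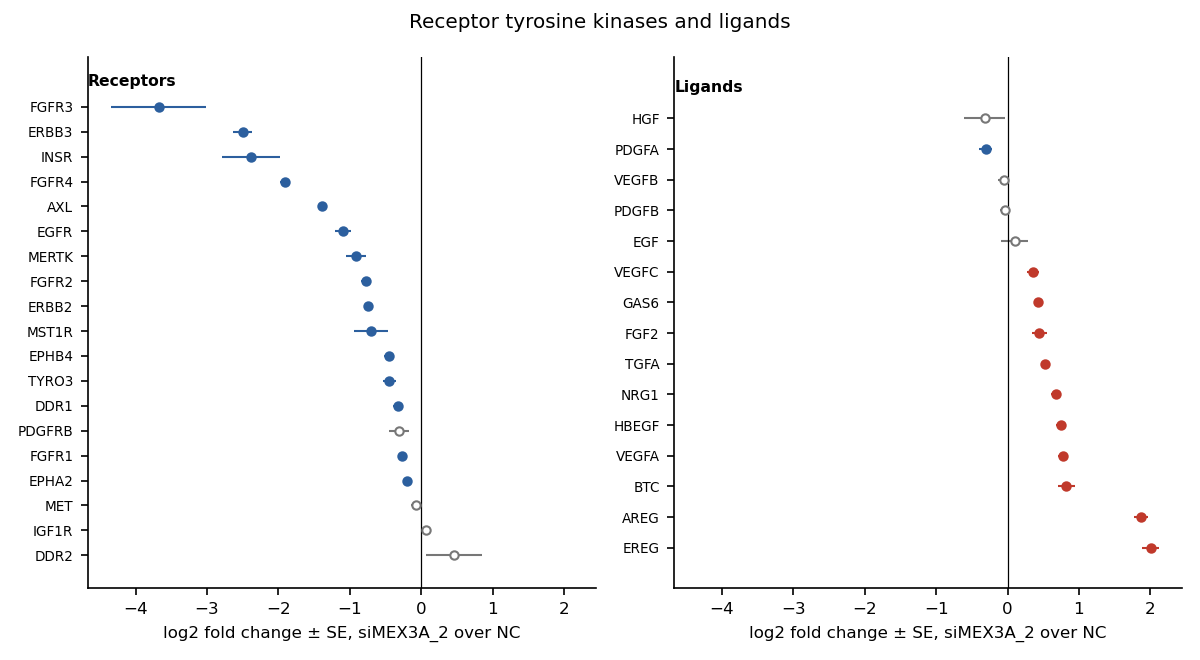
Log2 fold change of siMEX3A_2 over NC for tested receptor tyrosine kinase genes and growth factor ligand genes, with bars of 1 standard error. Filled points were called. All called receptor genes lie below 0, and EREG and AREG lie highest among the ligands.

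Downstream, regulatory subunits of phosphoinositide 3-kinase parted. PIK3R2 was at 463 and 495 normalized counts in NC and 4 and 36.1 with siMEX3A_2, a change of -4.57 (SE 0.40, adjusted p = 8.25e-06), with a wide gap between the siMEX3A_2 libraries. AC007192.1, a gene on the same strand that overlaps it, was at 1150.3 and 1151 in NC and 293 and 235 with siMEX3A_2, so reads of the pair may be shared between them. The sum of both was 1613 and 1646 in NC and 297 and 271 with siMEX3A_2, a log2 ratio of -2.52. PIK3R1, the main regulatory subunit in many cells, was at 429 and 417 in NC and 803 and 827 with siMEX3A_2 and rose by 0.95 (SE 0.065, adjusted p = 1.88e-06). PIK3CA, a catalytic subunit, rose by 0.55. EIF4EBP1, a translation repressor that mTOR restrains, fell by 1.19, and IRS2, an insulin receptor substrate, fell by 0.70. Over the whole list of 34 genes 10 rose and 14 fell.

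Other signalling families held opposed members. In the transforming growth factor beta list 16 of 43 genes fell and 12 rose (median -0.13). There TGFB1 was at 1937 and 1985 normalized counts in NC and 440.2 and 429 with siMEX3A_2, a log2 fold change of -2.17 (SE 0.067, adjusted p = 2.35e-08). INHBA, which encodes a subunit of activins, was at 2579 and 2414 in NC and 7899 and 8164 with siMEX3A_2, with a rise of 1.69 (SE 0.052, adjusted p = 2.4e-08). Of 5 tested target genes 4 fell and 0 rose. ID2, an inhibitor of differentiation factors, fell by 0.99. Transducer genes rose in 5 of 10 cases and fell in 3. SMAD6, an inhibitor of the pathway, fell by 1.98 and SMAD5, a transducer, fell by 1.34. For the paired co-activators of TEAD factors, YAP1 was at 1530.5 and 1352 in NC and 3419.6 and 3686 with siMEX3A_2 and rose by 1.30 (SE 0.094, adjusted p = 2.58e-06), whereas WWTR1 was at 8969 and 7682 in NC and 3084 and 3056 with siMEX3A_2 and fell by 1.44 (SE 0.084, adjusted p = 6.99e-07). Of 12 tested classical targets of these factors 4 rose and 6 fell (median -0.16). The lowest was CTGF, which fell by 1.66, and the highest was ANKRD1, which rose by 2.89. VGLL4, which competes for TEAD binding, rose by 1.79. TGFB1 and VGLL4 overlap genes on the opposite strand, and no source used here says whether counting was by strand, so reads of such partners may not be told apart. Wnt receptor genes fell in 9 of 13 cases, such as LRP5 (-1.23) and FZD4 (-1.90), and rose in 1, while DESeq2 called 5 lower. The secreted Wnt inhibitor gene DKK1 rose by 1.41. Semaphorins and plexins, guidance cues and their receptors, fell in 16 of 26 cases, such as SEMA5A (-1.97) and SEMA4F (-2.36), and rose in 4.

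Genes of adhesion and matrix changed by subunit rather than as a block. CDH1, E-cadherin, fell by 3.62, while all 4 tested catenin genes rose, among them CTNNA1 (0.58) and JUP (0.65). Integrin beta genes fell in 5 of 7 cases and rose in 1 (0 without NC replicate 2 or either siMEX3A_2 library). ITGB8 was at 478 and 409 normalized counts in NC and 108 and 114 with siMEX3A_2, with a log2 fold change of -2.00 (SE 0.17, adjusted p = 6.08e-06), and ITGB1, the most widely paired beta subunit, fell by 0.71. Integrin alpha genes rose in 5 of 13 cases and fell in 2, with ITGA2 at 0.82 and ITGA7 at -1.64. Without either siMEX3A_2 library 3 alpha genes rose. Enzymes that modify collagen fell in 8 of 13 cases and rose in 1 (0 without NC replicate 2 or siMEX3A_2 replicate 2). LOXL2, a lysyl oxidase that cross-links collagen, was at 8754 and 8344 in NC and 2332 and 2226 with siMEX3A_2, a log2 fold change of -1.91 (SE 0.052, adjusted p = 1.18e-08). ENTPD4, which overlaps it, fell as well, and the sum of both gave a log2 ratio of -1.41. The lysyl hydroxylase genes PLOD1 (-1.19), PLOD2 (-0.82) and PLOD3 (-0.95) fell too. Among collagens COL5A2 rose by 1.72 and COL8A1 fell by 1.53. FN1, fibronectin, had the largest gain in counts, at 52076 and 46582 normalized counts in NC and 128528 and 125103 with siMEX3A_2, with a log2 fold change of 1.36 (SE 0.057, adjusted p = 1.05e-07).

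Kidney lineage factors specify tubular identity. PAX2 was at 2495 and 2677 normalized counts in NC and 686 and 618 with siMEX3A_2, a log2 fold change of -1.99 (SE 0.079, adjusted p = 8e-08). PAX8 fell by 0.53, LHX1 fell by 0.60 and SALL1 fell by 0.40. The SALL1 call did not hold in DESeq2 (adjusted p = 0.294) or without any 1 of the 4 libraries (0.0737 to 0.146). Of 12 tested lineage genes 5 fell and 0 rose, and 1 rose in the fit of the 4 libraries alone and without either siMEX3A_1 library. CDH16, a kidney-specific cadherin, fell by 1.49, and MME, a brush border peptidase, rose by 1.34. EPAS1, the hypoxia factor HIF-2 alpha, was at 15742 and 14346 in NC and 3031 and 3061 with siMEX3A_2, and it fell by 2.30 (SE 0.059, adjusted p = 1.12e-08). Its values did not overlap between groups. HIF1A fell by 0.21, which did not pass without any 1 of the 4 libraries (adjusted p 0.0547 to 0.236). Of 24 tested glycolysis genes 15 fell, among them LDHA (-1.05), lactate dehydrogenase, and 4 rose, among them the glucose carrier gene SLC2A3 (1.99).

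Families of transcription factors differed in direction. KLF genes rose in 8 of 13 cases and fell in 2, a number that was 0 in DESeq2, without NC replicate 1 and without siMEX3A_2 replicate 2, and 1 without NC replicate 2 and without siMEX3A_2 replicate 1. KLF4 was at 45.7 and 60.5 normalized counts in NC and 510.2 and 453 with siMEX3A_2, a rise of 3.18 (SE 0.15, adjusted p = 2.01e-07), and KLF2 (1.56) and KLF5 (1.16) rose too. The related SP genes rose in 0 of 7 cases and fell in 3, with SP4 at -0.65. DESeq2 called 1 SP gene lower, and 1 rose in the fit of the 4 libraries alone, without NC replicate 1 and without either siMEX3A_1 library. AP-1 genes rose in 8 of 11 cases and fell in 1 (0 without NC replicate 1 or either siMEX3A_2 library). ATF3 was at 602 and 625 in NC and 3317 and 3349.6 with siMEX3A_2, with a log2 fold change of 2.44 (SE 0.063, adjusted p = 1.12e-08), and FOSB rose by 2.45 and JUN by 1.15. EGR1, an immediate early gene, went against them, at -1.20. HOX genes, which set position along the body axis, fell in 19 of 36 cases and rose in 9 (5 in DESeq2). At least 2-fold falls were found in 9 HOX genes and at least 2-fold rises in 0. HOXA3 fell by 1.22, HOXB8 fell by 1.22 and HOXD10 fell by 1.16. These 3 genes overlap HOX neighbours on the same strand, so reads may be shared among them. Summed with HOXB7, HOXB8 gave a log2 ratio of -0.36, HOXD10 summed with HOXD11 gave -0.74, and HOXA3 summed with HOXA4, HOXA5 or HOXA6 gave -1.09, -1.01 and -1.22. ZNF zinc finger genes rose in 188 of 433 cases, such as ZNF664 (1.80) and ZNF267 (1.93), and fell in 40. DESeq2 called 116 higher and 17 lower, and 25 were lower without siMEX3A_2 replicate 2. Many of these genes are near copies of each other, so reads may be shared among them. Nuclear receptors, which bind hormones and lipids, rose in 12 of 29 cases and fell in 4. The vitamin D receptor gene VDR was at 526 and 555 in NC and 1458 and 1484 with siMEX3A_2, a rise of 1.44 (SE 0.064, adjusted p = 1.46e-07), and PPARG (1.22) and NR3C1, the glucocorticoid receptor, (1.11) rose too.

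The circadian clock runs on activators that drive their own repressors. ARNTL, the activator BMAL1, was at 81.4 and 96.7 normalized counts in NC and 506 and 504 with siMEX3A_2, with a log2 fold change of 2.50 (SE 0.11, adjusted p = 1.14e-07). Of 17 tested clock genes 5 rose and 8 fell, with a median of -0.12. Of those named here CRY1 and PER1 fell, at -1.36 and -1.24, whereas NR1D1 rose by 1.22. In the MYC network MYC itself was at 3072 and 3014 in NC and 3102 and 2896 with siMEX3A_2 and did not pass (adjusted p = 0.783). MAX, its partner, rose by 1.09, and MXD1, which competes with MYC for MAX, rose by 1.21. MXD1 overlaps SNRNP27 on the same strand, and the sum of both gave a log2 ratio of 0.19. Among histone deacetylases and sirtuins 12 of 18 did not pass and 2 fell (1 in DESeq2 and without NC replicate 2 or siMEX3A_2 replicate 2). Besides HDAC9, HDAC5 rose by 0.85 and HDAC6 fell by 0.53. Demethylase genes rose in 9 of 16 cases and fell in 3. KDM6B, which removes a repressive mark from histone H3, was at 501 and 541 in NC and 1421 and 1311 with siMEX3A_2 and rose by 1.39 (SE 0.074, adjusted p = 4.21e-07). Remodeller genes rose in 8 of 14 cases and fell in 4 (median 0.26). Against this median SMARCA4, an ATPase of the SWI/SNF remodeller, was at 2674 and 2790.2 in NC and 1197 and 1079.8 with siMEX3A_2. It fell by 1.26 (SE 0.075, adjusted p = 7.8e-07). Replication-dependent histone genes rose in 21 of 26 cases and fell in 0 (1 without siMEX3A_2 replicate 1), and DESeq2 called 13 higher. HIST1H2BD was at 27.8 and 16.6 in NC and 333 and 398 with siMEX3A_2, a rise of 4.04 (SE 0.19, adjusted p = 2.28e-07). Of 82 replication-dependent histone genes in the table, 26 passed the filter on low counts. The 26 summed to 797 and 834 normalized counts in NC and 2613 and 2654 with siMEX3A_2. Some may thus have been tested only because they were high with an siRNA. Histone genes of this kind are near copies of each other. Most of their transcripts lack a poly(A) tail, so an mRNA library holds only part of them.

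Ribosome biogenesis builds ribosomal subunits in the nucleolus, with large demand for RNA processing factors. Of 62 tested genes in this list 46 fell and 5 rose, with a median of -0.40. The list also holds 4 polyamine genes, of which 3 fell and 1 rose. Of its 49 processing genes 36 fell and 2 rose (median -0.41). NCL, nucleolin, was at 17736 and 18622 normalized counts in NC and 9499 and 9774 with siMEX3A_2, a log2 fold change of -0.92 (SE 0.044, adjusted p = 2.37e-07). DDX18, a nucleolar helicase, was at 4951 and 4949.7 in NC and 2314 and 2247 with siMEX3A_2, with a log2 fold change of -1.12 (SE 0.058, adjusted p = 3.7e-07). SRM, the spermidine synthase among the polyamine genes, was at 1016 and 1036 in NC and 376 and 319.5 with siMEX3A_2. It fell by 1.56 (SE 0.081, adjusted p = 3.7e-07). NOLC1, a nucleolar phosphoprotein, was an exception at 2168 and 1994 in NC and 4026 and 3975 with siMEX3A_2, and rose by 0.94 (SE 0.063, adjusted p = 1.57e-06). The E-box CACGTG is a palindrome bound by MYC and related factors. It occurred in 25 of the 53 genes of this list, polyamine genes included, that had a RefSeq promoter (47.2%). Its share was 12.3% in the 11344 tested genes with a promoter and 7.26% in all promoters. Of the 25 list genes with the motif 20 fell and 1 rose, with a median of -0.48. Of the 28 without it 19 fell and 2 rose, with a median of -0.262. Falls were common in both, and the difference between the medians was not tested. The promoter of SRM is shown as the member with the lowest value of those named here, its E-box in capitals, from the 250 bases before its start at chr1:11060019-11060268 (minus strand).
SRM: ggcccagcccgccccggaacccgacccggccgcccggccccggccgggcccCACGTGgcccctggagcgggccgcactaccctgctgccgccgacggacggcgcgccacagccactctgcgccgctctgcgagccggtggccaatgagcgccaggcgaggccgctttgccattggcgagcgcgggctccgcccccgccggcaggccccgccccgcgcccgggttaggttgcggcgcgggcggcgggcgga

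Mitochondrial ribosomal protein genes fell in 48 of 78 cases, such as MRPS35 (-0.98) and MRPL34 (-1.01), and rose in 9 (5 in DESeq2). Cytosolic ribosomal protein genes rose in 33 of 80 cases and fell in 4, by small amounts (median 0.12). Without NC replicate 1 or without siMEX3A_2 replicate 2 the number that rose was 21, and without NC replicate 2 or siMEX3A_2 replicate 2 the number that fell was 2. RPL11 rose by 0.87 (SE 0.045, adjusted p = 3.48e-07), from 5081 and 5220.2 normalized counts in NC to 9406 and 9455. Nucleotide synthesis genes fell in 24 of 30 cases and rose in 0. IMPDH1, a step towards guanine nucleotides, was at 1577 and 1544 in NC and 440.2 and 421 with siMEX3A_2, with a log2 fold change of -1.86 (SE 0.066, adjusted p = 4.77e-08). CTPS1, which makes CTP, fell by 1.44, and DHODH, a step of pyrimidine synthesis, fell by 1.43. Amino acid and one-carbon synthesis genes fell in 18 of 23 cases, among them PHGDH (-0.96), PSAT1 (-0.84) and MTHFD1 (-1.11), and rose in 0. Response genes of ATF4 rose in 7 of 10 cases and fell in 1. NUPR1, a stress-induced chromatin protein, was at 595 and 634 in NC and 2188 and 2096 with siMEX3A_2, a rise of 1.80 (SE 0.071, adjusted p = 7.64e-08), and SESN2 rose by 1.51. SLC7A11, the cystine carrier, rose by 1.69, whereas SLC7A5, a carrier of large neutral amino acids, fell by 0.81.

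Nuclear pore and transport genes fell in 39 of 55 cases and rose in 6 (3 without NC replicate 2 or without siMEX3A_2 replicate 1). XPO7, an exportin, was at 1916 and 1741 normalized counts in NC and 769 and 752 with siMEX3A_2, with a log2 fold change of -1.26 (SE 0.069, adjusted p = 5.01e-07), and the pore genes NUP37 (-1.39) and NUP210 (-1.16) fell too. SR splicing factor genes fell in 12 of 17 cases, among them SRSF1 (-0.69) and SRSF7 (-0.80), and rose in 2 (1 without NC replicate 2 or siMEX3A_2 replicate 2, 4 in the fit of the 4 libraries alone and without siMEX3A_1 replicate 2). In mitochondria HSPD1, the matrix chaperonin, was at 11538 and 11822 in NC and 5208 and 5422 with siMEX3A_2 and fell by 1.14 (SE 0.045, adjusted p = 7.64e-08). SDHA, the flavoprotein of complex II, was at 2423 and 2419 in NC and 938 and 923 with siMEX3A_2, with a log2 fold change of -1.38 (SE 0.058, adjusted p = 1.09e-07). The import receptors parted, with TOMM70 at -1.39 and TOMM22 at 1.17. Nuclear-encoded respiratory genes fell in 33 of 76 cases and rose in 10 (5 or 6 without NC replicate 1 or either siMEX3A_2 library). Mitochondrially encoded genes took 11.4% and 11.5% of the NC libraries and 11.8% and 11.9% of the siMEX3A_2 libraries.

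Lysosomes digest material that autophagy and endocytosis deliver. Lysosomal genes rose in 37 of 69 cases and fell in 14 (9 without siMEX3A_2 replicate 2), with a median of 0.29. TPP1, a peptidase, was at 2269.9 and 2214 normalized counts in NC and 7138 and 7502 with siMEX3A_2, a rise of 1.71 (SE 0.052, adjusted p = 2.2e-08). CTSD, cathepsin D, was at 8194 and 8516 in NC and 20177 and 19755 with siMEX3A_2, with a log2 fold change of 1.26 (SE 0.044, adjusted p = 4.51e-08). PSAP, the precursor of saposins, rose by 0.91 and the chloride exchanger gene CLCN7 by 1.08. Autophagy genes rose in 24 of 44 cases and fell in 9. MAP1LC3B, which coats autophagosomes, was at 1978 and 2028 in NC and 4626 and 4758 with siMEX3A_2, a rise of 1.23 (SE 0.060, adjusted p = 2.77e-07). WIPI2 (1.20), ATG14 (1.15) and the cargo receptor gene SQSTM1 (0.72) rose too. Of 7 tested factor genes in the autophagy list 4 rose, 3 of them at least 2-fold, and 1 fell. TFE3, a factor that controls both lists, rose by 0.83.

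Target genes of NRF2, the factor of the oxidative stress response, rose in 19 of 22 cases and fell in 3. ABCC3, an export pump, was at 3139 and 3339 normalized counts in NC and 10181 and 9823 with siMEX3A_2, with a log2 fold change of 1.63 (SE 0.060, adjusted p = 5.61e-08), and ME1, malic enzyme, rose by 1.50. AKR1B1, aldose reductase, went against the list, at 38464 and 41949.8 in NC and 18779 and 17994 with siMEX3A_2, with a log2 fold change of -1.13 (SE 0.047, adjusted p = 1.05e-07). NFE2L2, which encodes NRF2, did not pass (adjusted p = 0.153), and its competitor BACH1 rose by 1.13. The metal-binding metallothionein MT1E was at 5310.0 and 5163 in NC and 12672 and 11701 with siMEX3A_2 and rose by 1.22 (SE 0.055, adjusted p = 1.53e-07), as 5 of 6 tested metallothionein genes did, while 1 fell. The number that rose was 2 in DESeq2 and without siMEX3A_2 replicate 1, and 3 without NC replicate 1. Of 7 tested zinc exporter genes 1 rose, SLC30A1 by 0.64, and 3 fell. Metallothionein genes are near copies of each other, so their counts are uncertain. Sterol synthesis genes rose in 13 of 20 cases, such as HMGCS1 (1.17) and SC5D (1.21), and fell in 2. Genes of the aryl hydrocarbon receptor and cytochrome P450 list fell in 8 of 23 cases and rose in 6 (median -0.14). CYP1B1, a target of the aryl hydrocarbon receptor, rose by 2.99, and the receptor gene AHR by 1.16.

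NF-kappaB pathway genes rose in 17 of 27 cases and fell in 5. Besides TRAF1, TNIP1, an inhibitor of the pathway, was at 2656 and 2694 normalized counts in NC and 6426 and 6221 with siMEX3A_2, a rise of 1.24 (SE 0.059, adjusted p = 2.32e-07). NFKBIZ, a nuclear cofactor, was at 2453 and 2203 in NC and 853 and 831 with siMEX3A_2 and fell by 1.47 (SE 0.084, adjusted p = 6.32e-07). Cytokine genes did not move together. CXCL1 rose by 1.85 and CXCL8 by 1.55, whereas IL6 fell by 1.44 and CX3CL1 fell by 1.91. Interferon target genes rose in 24 of 40 cases and fell in 5 (3 without NC replicate 1 or either siMEX3A_2 library). At least 2-fold changes were found in 5 risen and 2 fallen target genes, and values ranged from -6.17 to 2.85. Summed, the 40 genes were at 36716 and 35644 normalized counts in NC and 35959 and 36796 with siMEX3A_2. GBP3, a guanylate-binding protein, rose by 1.24. Genes of cell death rose in 17 of 33 cases and fell in 4 (2 in DESeq2). The pro-apoptotic BBC3 rose by 1.71, the protective BCL2L1 by 1.01, and BCL2, also protective, fell by 1.29. Target genes of p53 rose in 28 of 34 cases, among them BTG2 (1.76), and fell in 1.

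Long non-coding RNAs were called less often than the 52% over all tested genes, in both directions. Intergenic long non-coding RNAs rose in 69 of 321 cases and fell in 14, and antisense ones rose in 91 of 442 and fell in 39, each a smaller share than the 25.8% and 26.2% over all genes. LINC01234 rose by 1.59 and LINC00958 by 0.94. Most of these RNAs did not pass in either direction. DESeq2 called fewer, 37 intergenic ones higher and 5 lower, and 38 antisense ones higher and 16 lower. Without siMEX3A_2 replicate 2 the antisense counts were 60 and 21, and without NC replicate 1 25 antisense RNAs were lower. For antisense RNAs the same limit of an unknown strand setting holds. SNHG16, a host gene of small nucleolar RNAs, fell by 1.59. In the cell cycle lists, 30 of 34 replication genes and 24 of 30 mitosis genes fell, and 1 rose in each. Without NC replicate 2 or siMEX3A_2 replicate 2 none rose in either list, nor did a replication gene in DESeq2 or a mitosis gene without siMEX3A_2 replicate 1. CCNA2, cyclin A2, was at 2026 and 1961 normalized counts in NC and 445 and 481 with siMEX3A_2, a change of -2.11 (SE 0.072, adjusted p = 3.76e-08).

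**Figure D5:**
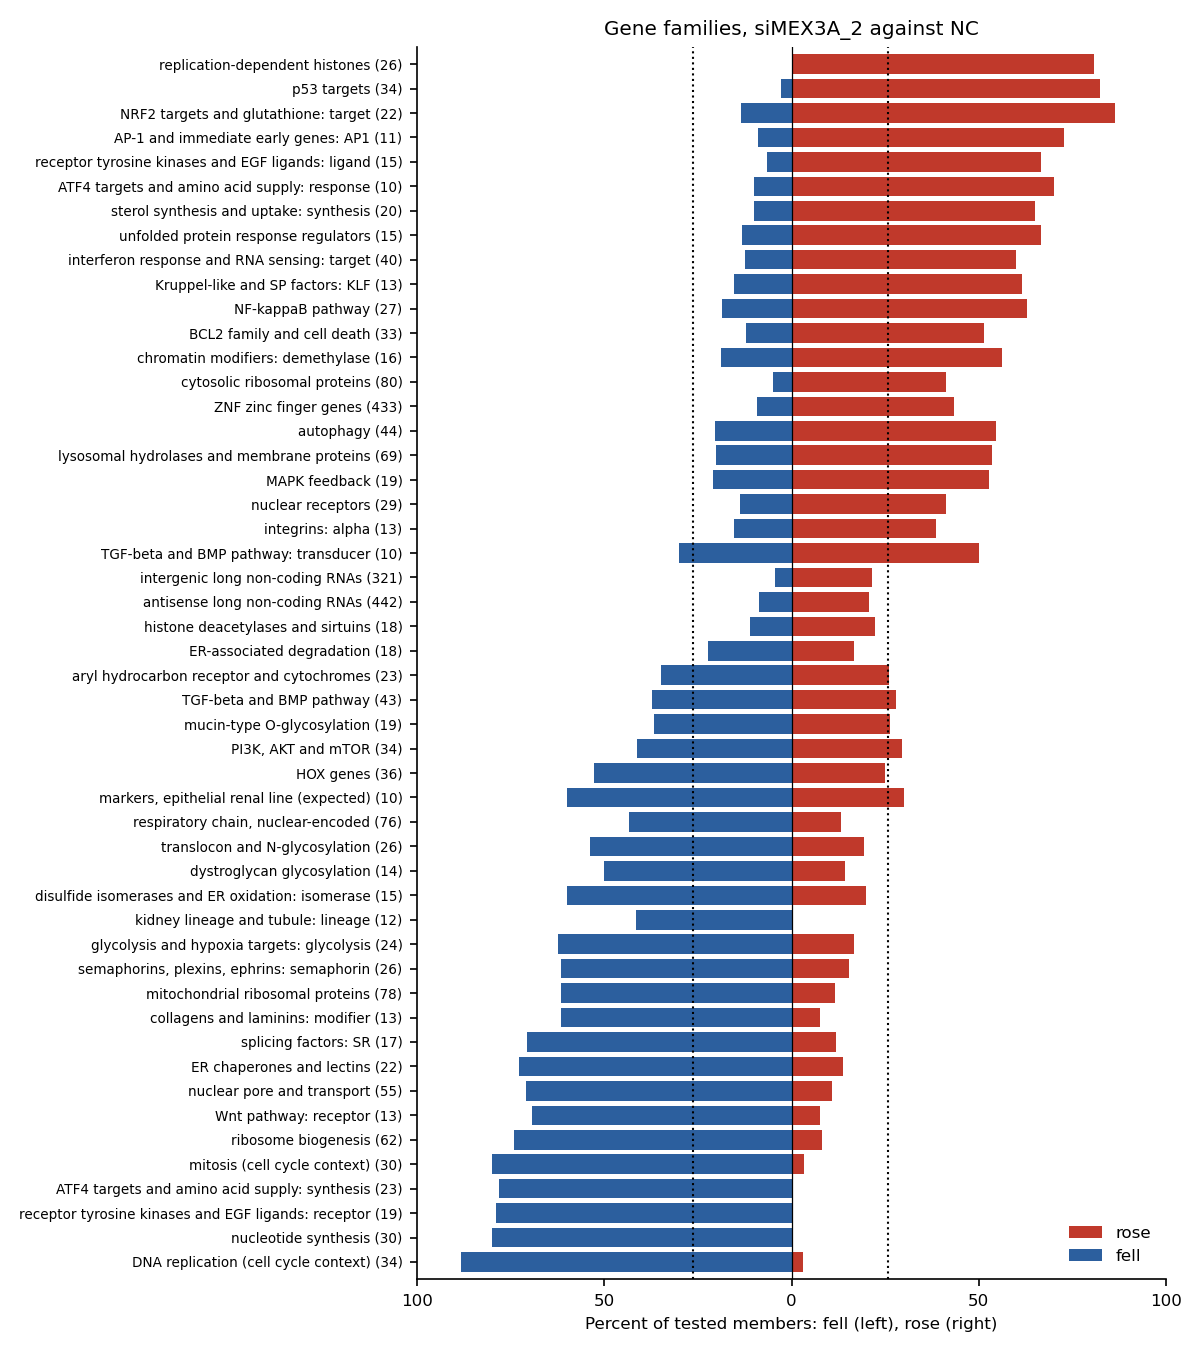
Share of tested members of 50 gene families that rose (right) or fell (left) with siMEX3A_2 against NC, with the number tested beside each name. Dotted lines mark the shares over all tested genes, 25.8% and 26.2%. Receptor tyrosine kinases, nucleotide synthesis and ribosome biogenesis lie far to the left, and p53 targets and replication-dependent histones far to the right. Of 82 such histone genes only the 26 that passed the filter on low counts are included.

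The direct contrast set siMEX3A_2 against siMEX3A_1. The NC libraries were not subtracted in it, but they entered the scaling, the filter on low counts and the estimate of spread. It called 52.7% of tested genes, of which 4763 (26.2%) were higher with siMEX3A_2 and 4824 (26.5%) lower. At least 2-fold differences were 1515 (8.33%) and 1221 (6.71%). ER chaperones and lectins were lower with siMEX3A_2 in 21 of 22 cases and higher in 0. Regulators of the unfolded protein response were lower too, in 10 of 15 cases, and higher in 3 (median -0.48). Their 3 output genes, PPP1R15A and TRIB3 among them, were all lower (median -0.99), although all 3 rose against NC. TXNDC5 was at 692 and 614 normalized counts with siMEX3A_2, 6512 and 6287 with siMEX3A_1 and 6306 and 6290.2 in NC. The siMEX3A_1 libraries lay with NC, and the difference between the siRNAs was -3.29 (SE 0.068, adjusted p = 3.34e-09). SLC39A6 was at 3175 and 3281 with siMEX3A_1, a difference of -3.17 (SE 0.070, adjusted p = 3.85e-09). GALNT1 (-2.64), LOXL2 (-1.91), TGFB1 (-2.47) and THBS1 (-2.15) were likewise lower with siMEX3A_2. EPAS1 was at 25163 and 27328 with siMEX3A_1, so that the siMEX3A_2 libraries were lowest of the 6, with a difference of -3.11 (SE 0.061, adjusted p = 2.91e-09). IGFBP3, a binding protein of insulin-like growth factors, was at 521 and 525 normalized counts with siMEX3A_2, 21618 and 20875 with siMEX3A_1 and 1379.6 and 1294 in NC. Here siMEX3A_1 stood high and siMEX3A_2 low, with a log2 fold change of -5.34 (SE 0.060, adjusted p = 4.16e-11).

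Higher with siMEX3A_2 than with siMEX3A_1 were EMP1, at 49.5 and 54 with siMEX3A_1 and a difference of 4.45 (SE 0.10, adjusted p = 3.85e-09), and HDAC9, at 419 and 514 and 2.24 (SE 0.092, adjusted p = 4.91e-08). For EMP1 the NC libraries lay between those of the 2 siRNAs. YAP1 was at 596 and 726 with siMEX3A_1, and the difference was 2.43 (SE 0.10, adjusted p = 4.91e-08). DAG1 was at 334 and 321 with siMEX3A_1, a difference of 2.11 (SE 0.068, adjusted p = 1.43e-08), although it fell against NC. Sterol synthesis genes were higher with siMEX3A_2 in 19 of 20 cases, and replication genes in 31 of 34. For KLF4 and FOSB the differences were smaller, at 0.41 and 0.56. The KLF4 difference did not pass in DESeq2 (0.40, adjusted p = 0.0576). It was 0.30 without siMEX3A_1 replicate 1 and 0.32 without siMEX3A_2 replicate 1. CDH1 gave a log2 fold change of 0.27 (SE 0.26, adjusted p = 0.422) and ATF3 gave a log2 fold change of -0.14 (SE 0.056, adjusted p = 0.063) in this contrast. MEX3A itself was at 56.6 and 65.2 with siMEX3A_1, and the difference did not pass, at 0.29 (SE 0.18, adjusted p = 0.207).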

How the data were processed

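Counts per gene came from 2 tables deposited by the authors, each setting 1 siRNA against NC. The expected counts are, as deposited, estimated and not normalized, and 68.6% to 69.4% of the values, zeros included, were whole numbers. Per the submitters' processing notes STAR, RSEM, hg19 and GRCh37 were used, without versions. Roles, annotation and strand setting are not given in the sources used here. Per the file headers, the tables also hold the authors' log2 fold changes, their p-values and adjusted p-values, a mean normalized count and a test statistic, each of the last 2 a score here.

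Expected counts were rounded to whole numbers, and rows whose gene name occurs more than once (up to 0.339% of a library) were left out. Of 55928 rows, 18197 passed edgeR's filterByExpr with its default minimum count of 10. The 6 libraries were scaled by TMM and fitted together with the quasi-likelihood test (edgeR 4.0.16, limma 3.58.1, R 4.3.3), with group as the only term, and p-values were adjusted by Benjamini-Hochberg over all tested genes. The threshold was 0.05. Normalized counts are counts divided by relative library size after scaling. The test was also run on counts simulated from the fitted spread. Far fewer genes changed there than were called here, so no conclusion is drawn from that run. Alternatives were DESeq2 1.42.0, the authors' deposited table, other scalings and filters, a replicate term and leaving out each library. Members and gene lists were chosen with earlier results of these data known. Lists were described by counts and medians only.

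Named genes were MEX3A, any tested member of lists of at most 12, otherwise up to 6 members a list or role by lowest p plus up to 2 abundant members that did not pass, and the 30 largest rises and 30 largest falls among called genes with a symbol, a 4-library mean of 100 or more and groups that did not overlap. The 10 highest and 10 lowest genes in the direct contrast and the 10 largest gains and losses in counts were added. BLOC1S5-TXNDC5, AC007192.1, AC034102.2 and SNRNP27 were named as overlapping genes after their values were seen. Promoters were RefSeq's for GRCh38.p14, which differs from the build named by the submitters, and were matched by symbol. Some members of the lists are counted but not reported here by name.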

Additional observations from a re-analysis of the deposited data

How the results depend on the processing

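Counts of genes called in siMEX3A_2 against NC stayed within 1.5 times of 4692 higher and 4766 lower under each alternative run. The lowest were 3414 higher and 3435 lower in the authors' deposited table, and a fit of the 4 libraries alone gave 4941 and 4902. DESeq2 called 3457 higher and 3491 lower. Leaving out 1 library gave 3584 to 4872 higher and 3711 to 4921 lower, and the omission of either siMEX3A_1 library was added after the data were seen, as were DESeq2 and the omission of either NC library for the direct contrast. With a mean of at least 50 counts, fewer genes were tested, the 2-fold counts were 666 higher and 881 lower, and MEX3A passed (log2 fold change -0.43, adjusted p = 0.0446). Under its other alternatives the adjusted p of MEX3A lay between 0.0544 and 0.392. XBP1 passed with library-size scaling (adjusted p = 0.0432), with the mean of at least 50 (0.0343) and without siMEX3A_1 replicate 1 (0.0473). Without single libraries MET ranged from -0.16 to 0.026 (above 0 without NC replicate 1) and MYC from -0.067 to 0.030 (above 0 without siMEX3A_2 replicate 2), neither called. CDH1 in the direct contrast ranged from -0.057 (without siMEX3A_1 replicate 1) over -0.026 (without siMEX3A_2 replicate 2) to 0.68 (without siMEX3A_1 replicate 2). ATF3 in that contrast passed without siMEX3A_1 replicate 1 (adjusted p = 0.0443). The cause of these changes was not tested.

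With the replicate number as a block, 4428 genes were higher and 4518 lower, and in the direct contrast 4555 and 4562. Same-numbered libraries did not deviate together in each pair (r = 0.19 for NC and siMEX3A_2, -0.38 for NC and siMEX3A_1, -0.064 for both siRNAs, across 11504 genes), so the number was not taken as a pairing. HIF1A (adjusted p = 0.0549) and SALL1 (0.0523) did not pass with the block. Under the other scalings the median of all genes was at most 0.018 in size, at -0.018 with library size only. Of 1830 list counts recomputed, 126 moved by over 1.5 times, and of 915 list medians 24 moved by more than the median standard error of the members. With 2 libraries a group, low counts such as those of MEX3A and most long non-coding RNAs limit what could be called.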
